A study of Mus musculus with 8 samples.

Results

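Chemokines are small secreted proteins that direct the migration of leukocytes. The chemokine ligand genes analysed here are the genes whose symbol is Ccl or Cxcl followed by a number and at most 1 letter, together with Cx3cl1 and Xcl1, which gave 40 of the 52195 genes in the deposited table. Bulk RNA sequencing of polyadenylated RNA was used to profile 4 tissues (lung, small intestine, kidney and liver) of male mice of the inbred C57BL/6J strain, given as C57BL/6 in the sample labels, aged 6 to 10 weeks. No mouse carried a transgene or received a treatment according to the labels and the methods, and each tissue was represented by 2 libraries, which came from separate mice. By the methods of the paper all 4 tissues were taken from each mouse, so libraries of different tissues can share a mouse. The labels do not say which libraries share one, and the main test had no term for the mouse. Whole excised tissue was ground, so every value is an average over the epithelial, stromal, endothelial and blood cells of that tissue, and in such samples fewer cells of a type and less RNA per cell cannot be told apart. The data set was generated to test estimates of cell-type composition, and the comparison that its design allows is that between the 4 tissues.

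Chemokines fall into classes by the spacing of their conserved cysteines. In CC chemokines the leading cysteines are adjacent, in CXC chemokines they are separated by a single residue, and Cx3cl1 and Xcl1 represent the remaining classes. All of them act on receptors that span the membrane and couple to G proteins, apart from a few atypical receptors that bind and remove ligands without this coupling. Homeostatic chemokines are made steadily and position cells in healthy tissue, such as lymphocytes in lymphoid organs or in the gut wall, whereas inflammatory chemokines are made at low levels until infection or injury induces them, often through NF-kB or interferon. Lung and small intestine are barrier organs with a large resident immune compartment, the liver holds macrophages in its sinusoids, and the kidney consists mostly of tubular epithelium.

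Promoter sequence is shown for 4 members that led in different tissues, Cxcl15 as the highest member of lung, Ccl25 as that of small intestine, and the neighbours Ccl9 and Ccl6, of which Ccl9 was called higher in liver and Ccl6 in lung and small intestine. Each window is taken from RefSeq (GRCm38.p6) and runs in the direction of transcription from 250 bases before to 50 bases after the annotated start. Capitals mark the letters TATAAA, read on either strand.
Cxcl15, chr5:90794284-90794583, + strand: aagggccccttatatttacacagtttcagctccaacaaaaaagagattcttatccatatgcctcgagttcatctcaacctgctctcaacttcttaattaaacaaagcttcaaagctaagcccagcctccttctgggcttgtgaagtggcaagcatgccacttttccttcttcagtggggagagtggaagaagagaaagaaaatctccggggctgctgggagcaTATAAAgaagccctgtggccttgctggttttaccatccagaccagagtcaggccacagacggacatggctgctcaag
Ccl25, chr8:4349338-4349637, + strand: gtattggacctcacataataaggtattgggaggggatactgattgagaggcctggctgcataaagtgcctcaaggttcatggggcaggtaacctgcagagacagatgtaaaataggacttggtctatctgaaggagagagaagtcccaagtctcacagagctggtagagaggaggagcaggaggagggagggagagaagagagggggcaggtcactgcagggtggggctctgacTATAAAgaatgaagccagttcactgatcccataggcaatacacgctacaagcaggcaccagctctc
Ccl9, chr11:83578587-83578886, - strand: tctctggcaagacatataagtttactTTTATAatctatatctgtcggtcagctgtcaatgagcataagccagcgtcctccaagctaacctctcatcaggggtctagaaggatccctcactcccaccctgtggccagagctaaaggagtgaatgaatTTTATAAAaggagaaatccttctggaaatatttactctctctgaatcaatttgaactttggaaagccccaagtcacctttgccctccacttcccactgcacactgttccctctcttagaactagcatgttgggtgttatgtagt
Ccl6, chr11:83593038-83593337, - strand: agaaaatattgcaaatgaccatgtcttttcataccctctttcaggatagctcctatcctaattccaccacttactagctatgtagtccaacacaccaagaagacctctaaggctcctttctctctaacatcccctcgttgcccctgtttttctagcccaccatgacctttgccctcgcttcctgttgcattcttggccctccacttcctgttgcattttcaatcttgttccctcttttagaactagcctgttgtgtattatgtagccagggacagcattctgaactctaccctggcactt
The Cxcl15 window held TATAAA with its leading base 27 bases upstream of the start. In the Ccl25 window shown, the leading base lay 16 bases upstream. RefSeq lists a second Ccl25 start with a window at chr8:4324960-4325259, which held none of the 4 motifs searched. The Ccl9 window held the motif at 224, 94 and 92 bases upstream, the last pair overlapping on opposite strands, and the Ccl6 window held none. Over all members, 27 of the 40 matched the table, with 33 windows. TATAAA occurred in 10 of these 33 windows (30.3%) and in 13.6% of the 32851 promoter windows of all genes. AGATAA, the core bound by GATA factors, occurred in 6 of the 33 windows and in 11.2% of all windows. TTGCNNAA, bound by C/EBP factors, also occurred in 6 of the 33 windows and in 10.8% of all windows. A form of the NF-kB site, GGGA and TTTCC with any base between them, occurred in 3 of the 33 windows and in 0.411% of all windows. These 3 were Cxcl1, Cxcl2 and Cxcl3, neighbouring genes for ligands that attract neutrophils. They are shown as 60 bases around the match, which is in capitals.
Cxcl1, chr5:90891149-90891208, + strand: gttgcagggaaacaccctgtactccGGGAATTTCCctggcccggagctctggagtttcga
Cxcl2, chr5:90903777-90903836, + strand: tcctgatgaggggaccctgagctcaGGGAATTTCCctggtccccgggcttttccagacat
Cxcl3, chr5:90786003-90786062, + strand: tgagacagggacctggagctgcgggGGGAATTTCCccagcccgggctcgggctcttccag
The match began 71, 97 and 73 bases upstream of the start in these windows, in the order shown, and its letters were identical in all 3. All matches were searched on both strands and are descriptions of the letters only.

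Values are given as FPKM, read fragments scaled to the exon length of a gene and to the depth of a library, as deposited, and a pair of values always lists replicate 1 and then replicate 2 of a tissue. The reads counted on genes numbered between 9164183 (liver replicate 1) and 21444672 (kidney replicate 1) per library, so 3 reads on 1 kb of exons are worth 0.140 FPKM in kidney replicate 1 and 0.327 FPKM in liver replicate 1. Values below that floor were not told from 0, and the floor covers counting error only. All tissue labels matched their markers, since the summed FPKM of the 4 marker genes of a tissue was at least 1265 in its own libraries and at most 169 in those of the other tissues. Markers of pancreatic acinar cells summed to 1071 and 500 FPKM in the small intestine libraries, with at most 1.75 elsewhere, and markers of heart muscle to 26.4 in both lung libraries, with at most 1.27 elsewhere. The values were compared on the scale log2(FPKM + 1), which understates the differences of low genes. For each gene, limma compared a tissue with the mean of the other 3, and calls required both an adjusted p under 0.05 (Benjamini-Hochberg) and a log2 difference beyond 1 in size. Genes entered the test when 2 or more libraries reached 1 FPKM, which left 16328. With 2 mice per tissue, the p-values describe the spread between few animals. Of the 40 members, 32 passed this filter, and 8 did not (Ccl1, Ccl2, Ccl7, Ccl26, Ccl27b, Cxcl2, Cxcl3 and Cxcl11). A member with reads in only 1 tissue passed because of that tissue, so the counts of called members below are descriptions. Ccl21a, Ccl21b and Ccl21c, whose rows share sequence, enter these counts as 3 members.

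Chemokine transcripts were most abundant in lung. Without Ccl21b and Ccl21c, which share sequence with Ccl21a, the summed FPKM of the 38 remaining members was 1352 and 1234 in the lung libraries, 301 and 292 in small intestine, 58.4 and 61.9 in liver, and 52.4 and 46.8 in kidney. After the median-of-ratios scaling described below, the sums were 745 and 649.7 in lung, 273 and 279 in small intestine, 106 and 98.7 in liver, and 50.9 and 65.1 in kidney. The lung sum exceeded the small intestine sum in both replicates on either scale. Cxcl15 alone made up 43.2% and 42.1% of the lung sum, and without it lung still held 768 and 714 FPKM. In small intestine the highest member was Ccl25, followed by Ccl6. In liver it was Cxcl12, followed by Ccl9, and in kidney it was Cxcl16. The number of members with at least 3 reads was 36 and 37 (lung), 30 and 32 (small intestine), 27 and 22 (kidney), and 23 and 24 (liver). By the mean of each tissue, 26 of the 40 members were highest in lung, 11 in small intestine, 3 in liver (Ccl9, Cxcl1 and Cxcl9) and 0 in kidney. After scaling these counts were 20, 13, 7 and 0, as Ccl3, Ccl4 and Ccl6 moved from lung to small intestine, Cxcl12, Ccl27 and Ccl27a from lung to liver, and Cxcl10 from small intestine to liver.

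**Figure D1:**
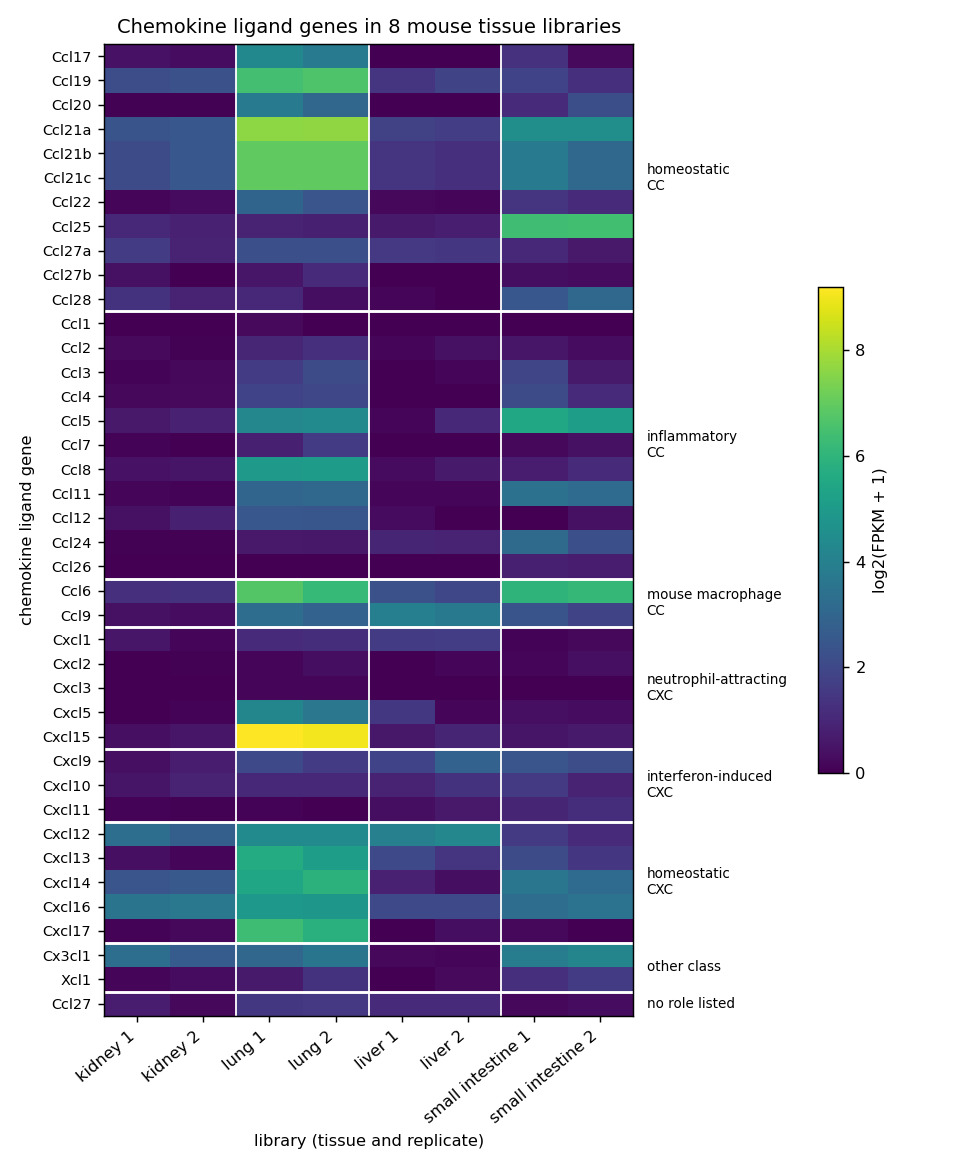
Heat map of log2(FPKM + 1) for the 40 chemokine ligand genes (rows, grouped by role) in the 8 libraries (columns, 2 per tissue). Bright cells mark high values, with Cxcl15 the brightest in both lung libraries, Ccl25 bright in both small intestine libraries, and the lung columns brighter than the others in most rows.

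**Figure D2:**
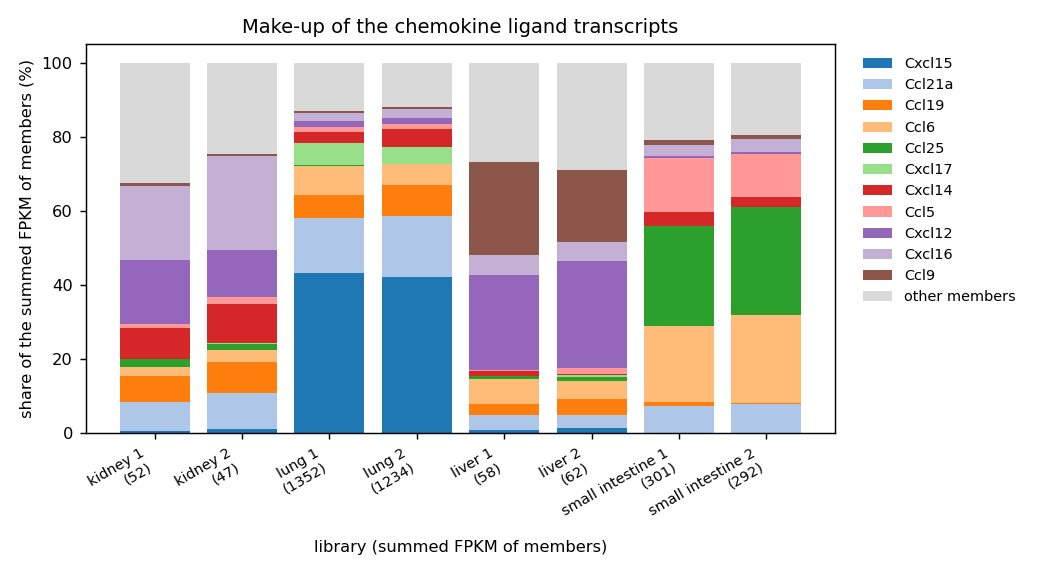
Stacked bars of the share (%) of the summed FPKM of 38 members (without Ccl21b and Ccl21c) taken by 11 of them and by the rest, in each library, with the sum in FPKM in parentheses. Cxcl15 makes up 43.2% and 42.1% in lung, Ccl25 and Ccl6 lead in small intestine, Cxcl12 and Ccl9 in liver, and Cxcl16 in kidney.

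In lung, 22 of the 32 members tested (68.8%) were called higher than the mean of the other tissues, and 40.7% of all tested genes were called in that direction. In the other direction 1 member, Ccl25, was called lower in lung, with 8.26% of all genes. In small intestine, 7 members (Ccl25, Ccl5, Ccl6, Ccl11, Ccl24, Ccl28 and Cx3cl1) were called higher, with 13.7% of all genes, and 6 (Cxcl15, Cxcl12, Cxcl17, Ccl19, Cxcl5 and Ccl8) lower, with 11.3% of all genes. In liver, 3 members (Ccl9, Cxcl12 and Cxcl1) were called higher, with 6.56% of all genes, and 20 lower, with 32.7%. In kidney, limma called 0 members higher, with 8.65% of all genes, and 19 lower, with 16.1%. At an unadjusted p under 0.05 also 0 members were higher in kidney in the deposited values. After the median-of-ratios scaling described below, 2 members, Cx3cl1 and Cxcl16, were higher at that level, and 0 were called. Limma-voom on the recovered reads called 1, Cx3cl1.

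The median of all tested genes also stood above the other tissues in lung, by 0.82 on the log2 scale, and below them in liver, by -0.72, and in kidney, by -0.34. The members' median log2 difference was 1.99 in lung, 0.09 in small intestine, where all genes had a median of -0.01, -1.29 in kidney and -1.58 in liver. Scaling the libraries by median-of-ratios size factors, which ranged from 0.552 to 1.90, brought the medians of all genes within -0.14 and -0.02. Under this scaling 17 members were called higher in lung, with 14.6% of all genes, and 1 lower, with 16%. The scaled counts were 9 higher, with 13% of all genes, and 4 lower, with 11.6%, in small intestine. They were 5 higher, with 12.3%, and 17 lower, with 13.9%, in liver, and 0 higher, with 11.5%, and 16 lower, with 12.1%, in kidney. The members' median under this scaling was 1.15 in lung, 0.02 in small intestine, -1.11 in kidney and -1.06 in liver.

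**Figure D3:**
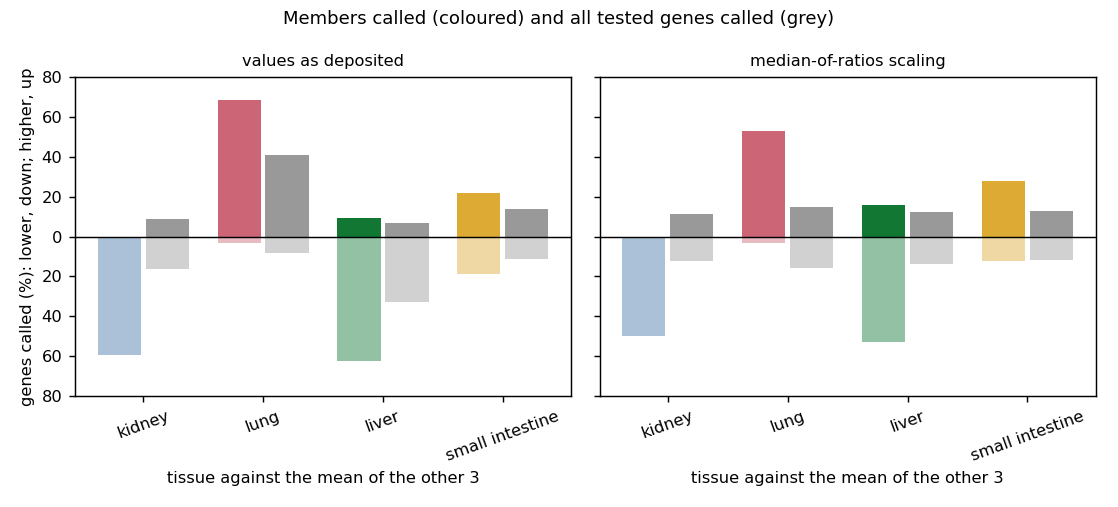
Percentage of the 32 tested members (coloured bars) and of all 16328 tested genes (grey bars) called higher (upwards, full colour) or lower (downwards, pale) in a tissue set against the mean of the remaining 3, for the deposited values (left) and after median-of-ratios scaling (right). In lung 68.8% of members and 40.7% of all genes were called higher on the left, and 53.1% and 14.6% on the right.

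Between pairs of tissues, in the deposited values, 24 of the 32 members differed between kidney and lung, all of them higher in lung, with 50.3% of all genes called in either direction. Between lung and liver 21 differed, all higher in lung, with 62.7% of all genes. Between lung and small intestine 22 differed, 19 higher in lung and 3 in small intestine, with 40.6% of all genes. Between kidney and small intestine 19 differed, 18 of them higher in small intestine, with 29.5% of all genes. Between liver and small intestine 20 differed, 17 of them higher in small intestine, with 36.2% of all genes. Kidney and liver were told apart for the fewest members, 9 of 32, of which 5 were higher in liver, with 23.1% of all genes. Under median-of-ratios scaling 20 members differed between kidney and lung, all higher in lung, with 34.1% of all genes. Between lung and liver 25 differed, with 37.2% of all genes, and 4 of these, Ccl9, Cxcl1, Cxcl9 and Cxcl12, were higher in liver. Between lung and small intestine 18 differed, with 30.7% of all genes, 13 of them higher in lung and 5 (Ccl5, Ccl24, Ccl25, Ccl28 and Cx3cl1) in small intestine. The scaled counts for the remaining pairs were 15 between kidney and small intestine, with 28.6% of all genes, 20 between liver and small intestine, with 29.8%, and 12 between kidney and liver, with 22%. A member had a single highest tissue where that tissue was called above each of the other 3. Such a tissue was found for 18 members and for 34.4% of all genes. It was lung for 15 members (21.1% of all genes) and small intestine for 3, Ccl24, Ccl25 and Ccl28 (5.95% of all genes). It was kidney for 0 members (3.68% of all genes) and liver for 0 (3.74% of all genes). Under median-of-ratios scaling, lung was the single highest tissue of 12 members (8.67% of all genes), small intestine of 4 (6.65%), liver of 3 (Ccl9, Cxcl1 and Cxcl12, 6.17%) and kidney of 0 (4.73%).

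The members attracting neutrophils held the family's highest value. Cxcl15, also called lungkine, is a mouse CXC chemokine of the airway epithelium, and its gene lies between Cxcl3 and Cxcl1. Its values were 585 and 520.1 FPKM in lung, 0.452 and 0.581 in small intestine, 0.307 and 0.489 in kidney and 0.513 and 0.956 in liver. Both lung libraries stood far above the other 6, which lay between 0.307 and 0.956 FPKM, and the lung mean was 752 times the next highest mean, that of liver. The lung difference was 8.49 on the log2 scale (standard error, SE, 0.15, limma adjusted p = 1.62e-07). Cxcl5, a ligand of the neutrophil receptor Cxcr2, measured 17.5 and 11.4 FPKM in lung, 0.287 and 0.237 in small intestine, 0.025 and 0.062 in kidney and 1.82 and 0.104 in liver. It was higher in both lung libraries (log2 difference 3.52, SE 0.33, limma adjusted p = 4.21e-05), while the liver libraries differed from each other more than kidney differed from small intestine. The other ligands of this group were low, with Cxcl2 and Cxcl3 at no more than 7 reads in any library. Cxcl1 was an exception in direction, with 1.2 and 1.33 FPKM in lung, 0.057 and 0.141 in small intestine, 0.473 and 0.123 in kidney and 2.1 and 2.22 in liver. Its 2 liver libraries lay above the other 6, and it was called higher in liver (log2 difference 1.10, SE 0.13, limma adjusted p = 0.000182), but not called apart from lung. Under median-of-ratios scaling it was (log2 difference of -1.47, lung minus liver, SE 0.14, limma adjusted p = 6.22e-05). Neutrophil markers (S100a8, S100a9, Csf3r and Retnlg) summed to 67.0 and 362 FPKM in the lung libraries and to at most 3.5 in the others, and their part in the results on this group was not tested.

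In the deposited values, all 5 homeostatic CXC chemokines had their highest mean in lung and were called higher there, with 40.7% of all genes. Under median-of-ratios scaling 3 of the 5 were called higher in lung, with 14.6% of all genes, while Cxcl12 and Cxcl16 were not (log2 differences of 0.44 and 0.79). Cxcl17 is a chemokine of mucosal surfaces. It measured 80.7 and 56.4 FPKM in lung, 0.14 and 0 in small intestine, 0.0613 and 0.152 in kidney and 0 and 0.255 in liver, so outside lung it was at no more than 2 reads in any library. Its lung difference was 5.96 (SE 0.19, limma adjusted p = 3.91e-07). Cxcl13 draws B cells into follicles through Cxcr5. Its values were 49.96 and 33.4 FPKM in lung, 3.25 and 1.77 in small intestine, 0.284 and 0.1 in kidney and 3.13 and 1.68 in liver. Lung was highest (log2 difference 4.13, SE 0.26, limma adjusted p = 5.14e-06), kidney was lowest, and liver and small intestine overlapped. Cxcl14, an epithelial and stromal chemokine, measured 42.9 and 58.7 FPKM in lung, 11.1 and 8.27 in small intestine, 4.39 and 4.93 in kidney and 0.776 and 0.265 in liver. No pair of tissues overlapped, in the order lung, small intestine, kidney and liver, and the step from kidney to small intestine was the only one between neighbours that was not called (log2 difference of -0.91, kidney minus small intestine, limma adjusted p = 0.0185).

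Cxcl12 retains stem cells and lymphocytes in their niches through Cxcr4. It measured 20.3 and 20.05 FPKM in lung, 1.96 and 1.21 in small intestine, 9.02 and 5.96 in kidney and 14.9 and 17.9 in liver, so small intestine stood below the other 3 tissues. The values of lung and liver did not overlap but were not told apart by the test (log2 difference 0.29, SE 0.23, limma adjusted p = 0.283). Under median-of-ratios scaling liver was called above lung (log2 difference of -1.28, lung minus liver, SE 0.17, limma adjusted p = 0.000408) and was the single highest tissue. Both liver (1.18, SE 0.19, limma adjusted p = 0.000871) and lung (1.56, SE 0.19, limma adjusted p = 0.000165) were called above the mean of the other tissues, and small intestine was called below it, with a log2 difference of -2.51 (SE 0.19, limma adjusted p = 2.4e-05). Cxcl16, a membrane-bound chemokine that is also a scavenger receptor, measured 29.1 and 28.2 FPKM in lung, 8.84 and 10.4 in small intestine, 10.5 and 11.9 in kidney and 3.11 and 3.05 in liver. Lung was highest, liver was lowest, and kidney and small intestine were adjacent without being told apart (log2 difference 0.20, SE 0.15, limma adjusted p = 0.33). Under median-of-ratios scaling kidney and lung were not told apart either (-0.23, kidney minus lung, SE 0.24, limma adjusted p = 0.446). Lung was then not called above small intestine (0.73, lung minus small intestine, SE 0.24, limma adjusted p = 0.0349). In kidney Cxcl16 was the highest member in both libraries, though 18.3% of its annotated exon bases overlap Zmynd15.

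The homeostatic CC chemokines of lymphoid tissue, Ccl19 and Ccl21, guide dendritic cells and T cells through Ccr7. Ccl21a measured 199 and 204 FPKM in lung, 22.1 and 22.2 in small intestine, 4.18 and 4.6 in kidney and 2.44 and 2.17 in liver, and lung exceeded small intestine, which in turn exceeded kidney and liver. The lung difference was 4.77 (SE 0.11, limma adjusted p = 2.51e-07). Ccl19 measured 87.1 and 101 FPKM in lung, 2.61 and 1.35 in small intestine, 3.57 and 3.89 in kidney and 1.67 and 2.67 in liver, with lung above the other 6 libraries (log2 difference 4.76, SE 0.21, limma adjusted p = 1.09e-06). In contrast to Ccl21a, the Ccl19 values of small intestine were low and overlapped those of liver. Ccl21b and Ccl21c were listed with the same value as each other in every library, 123 and 123 FPKM in lung, 13 and 7.69 in small intestine, 3.25 and 4.6 in kidney and 1.63 and 1.45 in liver. Their lung difference was 4.59 (limma adjusted p = 1.17e-06).

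These rows stand for a duplicated region, and a level cannot be assigned to a single copy. The deposited Ccl19 and Ccl21a values gave whole reads only with the exon lengths of the copies on the scaffold JH584294.1 (327 and 402 bases), not with those of the genes on chromosome 4 (867 and 870 bases). A row named Ccl27 gave whole reads with a copy on the scaffold JH584293.1. The 402-base transcript of Ccl21b was placed without gaps on the 870-base transcript of the Ccl21a gene on chromosome 4. It differed at 2 positions, T84A and C194T. There the Ccl21a base stands before the position and the Ccl21b base after it, and positions count from 1 at the 5′ end of the Ccl21b transcript. It differed at 0 positions from 3 further genes, Gm10591, Gm13304 and Gm21541, which measured between 92.9 and 125 FPKM in lung. The stretches around the differing bases, in capitals, show how little sequence separates the copies.
Ccl21a, bases 72 to 96: tgatggagggggTcaggactgctgc
Ccl21b, bases 72 to 96: tgatggagggggAcaggactgctgc
Ccl21a, bases 182 to 206: caatcctgttctCaccccggaagca
Ccl21b, bases 182 to 206: caatcctgttctTaccccggaagca
For the genes on chromosome 4, the share of 31-base words found in other genes was 100% for Ccl21b, 80.6% for Ccl21a, 58.8% for Ccl19, 57.0% for Ccl27a and 100% for Ccl27b. No words were available for the scaffold copies whose lengths fit the Ccl19 and Ccl21a rows, so their shares were not measured. Reads from stretches shared between genes fit several of them, and how such reads were counted is not given in the sources used here.

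The other homeostatic CC chemokines split between lung and small intestine. Ccl25, made by the epithelium of the small intestine and of the thymus, brings lymphocytes that carry Ccr9 into the gut wall. It measured 0.839 and 0.767 FPKM in lung, 81.3 and 85 in small intestine, 1.1 and 0.807 in kidney and 0.572 and 0.703 in liver. The 2 small intestine libraries stood far above the other 6, which lay within a narrow range, and the mean was 87.4 times that of kidney, the next tissue. The small intestine difference was 5.55 (SE 0.14, limma adjusted p = 1.88e-07). Ccl28, a ligand of Ccr10 on antibody-secreting cells, was also single highest in small intestine, with 4.63 and 7.55 FPKM (log2 difference 2.17, SE 0.24, limma adjusted p = 0.000181). Ccl17, a ligand of Ccr4 on helper T cells, measured 18.5 and 13.2 FPKM in lung, 1.45 and 0.172 in small intestine, 0.363 and 0.225 in kidney and 0 and 0 in liver. It had 0 reads in both liver libraries and was called higher in lung (3.68, SE 0.27, limma adjusted p = 1.23e-05). Ccl20, the ligand of Ccr6 in mucosal lymphoid tissue, measured 13 and 7.14 FPKM in lung, 1.2 and 3.67 in small intestine, 0.0328 and 0.0407 in kidney and 0 and 0 in liver. Lung was called above each other tissue (log2 difference 2.84, SE 0.31, limma adjusted p = 8.67e-05), while its replicates spread widely within lung and within small intestine. Under median-of-ratios scaling the step from lung to small intestine was not called (1.025, SE 0.37, limma adjusted p = 0.0523). In all, 8 of the 10 homeostatic CC members tested were called higher in lung (40.7% of all genes) and 2, Ccl25 and Ccl28, in small intestine (13.7%), while 9 were called lower in liver (32.7%) and 8 in kidney (16.1%). Under median-of-ratios scaling 7 were called higher in lung (14.6% of all genes), 7 lower in liver (13.9%) and 5 lower in kidney (12.1%). On either scale the counts for lung, liver and kidney each include Ccl21a, Ccl21b and Ccl21c, which share sequence.

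**Figure D4:**
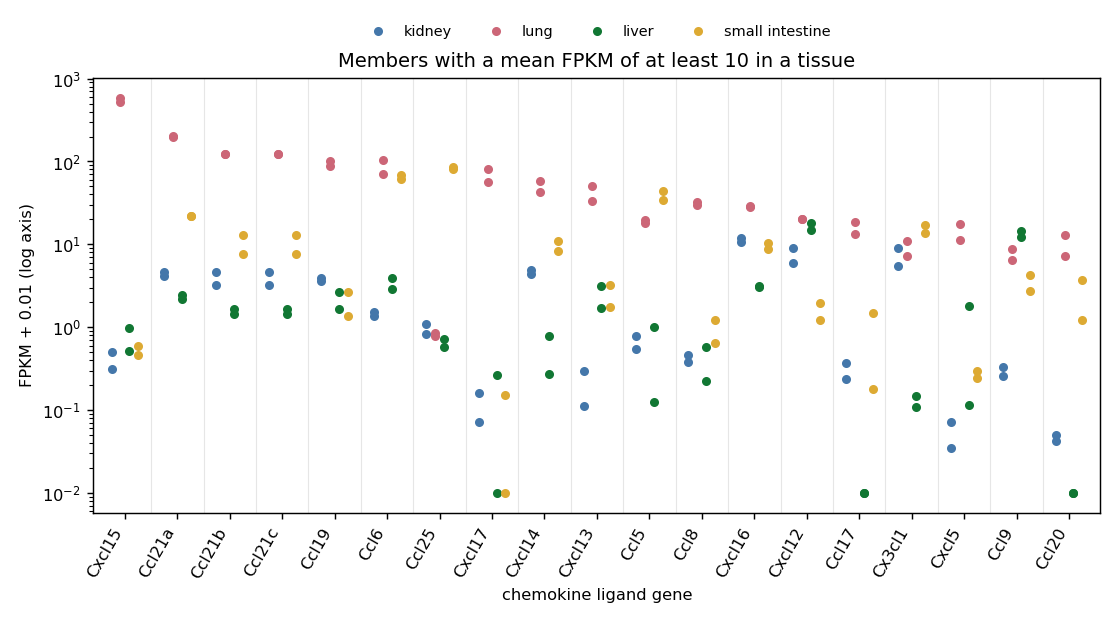
FPKM (plus 0.01, log axis) of the 19 members with a mean of at least 10 FPKM in a tissue (x axis, by falling maximum), with a point per library coloured by tissue. The lung points lie on top for most genes, whereas the small intestine points lead for Ccl25, Ccl5 and Cx3cl1 and the liver points for Ccl9, and points at 0.01 stand for a value of 0.

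Among inflammatory CC chemokines, Ccl5 reached the highest FPKM, in small intestine, whereas Ccl8 was higher than Ccl5 in lung. Ccl5 is made by activated T cells and natural killer cells. Its values were 18.2 and 19.5 FPKM in lung, 44.2 and 33.9 in small intestine, 0.534 and 0.782 in kidney and 0.114 and 1.01 in liver. Small intestine was highest without overlap (log2 difference 3.44, SE 0.23, limma adjusted p = 1.45e-05), lung stood second, and the step between them was just short of the call rule (log2 difference of -0.999, lung minus small intestine, SE 0.29, limma adjusted p = 0.0176). Under median-of-ratios scaling this step was called (-1.73, SE 0.35, limma adjusted p = 0.00445), and small intestine was the single highest tissue. Markers of T cells summed to 12.1 and 16.8 FPKM in lung, 11.99 and 12.08 in small intestine, and at most 0.504 in kidney and liver, and markers of natural killer cells to 5.13 and 10.2 in lung and at most 0.254 elsewhere, small intestine included. After median-of-ratios scaling the T cell sums were 6.65 and 8.84 in lung and 10.9 and 11.5 in small intestine, and the natural killer sums 2.82 and 5.37 in lung and at most 0.405 elsewhere. The part of these cells in the Ccl5 levels was not tested. Ccl8, a ligand of Ccr8 in the mouse, measured 30.1 and 32.3 FPKM in lung, 0.627 and 1.21 in small intestine, 0.365 and 0.452 in kidney and 0.214 and 0.569 in liver. Outside lung it had at most 7 reads in any library, and it was called higher in lung (log2 difference 4.38, SE 0.18, limma adjusted p = 8.68e-07). Of the 7 inflammatory CC members tested, 6 were called higher in lung (40.7% of all genes) and 3, Ccl5, Ccl11 and Ccl24, in small intestine (13.7%), with 0 in kidney and 0 in liver. Under median-of-ratios scaling 4 were called higher in lung (14.6%), without Ccl3 and Ccl4, and 4 in small intestine (13%), with Ccl4 added. Ccl11 and Ccl24, eotaxins that draw eosinophils, reached 9.97 and 8.33 FPKM and 8 and 3.75 FPKM in small intestine. Ccl11 was also 7 and 7.51 FPKM in lung, not told apart from small intestine, whereas Ccl24 was at most 0.927 FPKM outside small intestine. The monocyte attractants Ccl2 and Ccl7 were low, at most 1.41 and 2.11 FPKM in any library, both in lung. Ccl1 had 4 reads in lung replicate 1 and 0 elsewhere, and Ccl26 had 2 reads in each small intestine library and 0 elsewhere.

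Ccl6 and Ccl9 are related rodent chemokines of macrophages and other myeloid cells, act on Ccr1, and lie 9245 bases apart on chromosome 11. Their patterns over the tissues were unlike. Ccl6 measured 105 and 70.2 FPKM in lung, 61.9 and 69.2 in small intestine, 1.35 and 1.51 in kidney and 3.89 and 2.91 in liver. Lung and small intestine were both high and not told apart (log2 difference 0.39, SE 0.22, limma adjusted p = 0.156), and kidney was lowest, with a difference from the other tissues of -3.59 (SE 0.18, limma adjusted p = 4.91e-06). Ccl9 measured 8.81 and 6.42 FPKM in lung, 4.21 and 2.7 in small intestine, 0.322 and 0.247 in kidney and 14.7 and 12.1 in liver. Liver was highest without overlap and was called above the mean of the other tissues (log2 difference 1.98, SE 0.19, limma adjusted p = 7.66e-05). Lung minus liver was -0.75 for Ccl9 (SE 0.24, limma adjusted p = 0.0189), short of the call rule in the deposited values, and 4.31 for Ccl6 (SE 0.22, limma adjusted p = 1.95e-06), and the difference between the genes was not tested. Under median-of-ratios scaling the Ccl9 step was called (-2.22, SE 0.24, limma adjusted p = 0.000125). Macrophage markers (5 genes) summed to 147 and 124 FPKM in lung, 63.1 and 40.9 in small intestine, 49.9 and 49.9 in liver, and 16.3 and 12.8 in kidney, and 5 of the 5 were called higher in lung and 1 in liver. After median-of-ratios scaling the sums were 81.1 and 65.1 in lung, 57.1 and 39.1 in small intestine, 90.3 and 79.5 in liver, and 15.8 and 17.8 in kidney, with 1 called higher in lung and 3 in liver. Kupffer cell markers, which define the macrophages of the liver, summed to 91.4 and 92.2 in liver and to at most 0.755 elsewhere. Alveolar macrophage markers, of which Marco and Chil3 were in the file, summed to 352 and 294 in lung and to at most 2.17 elsewhere. The part of these cells in the levels of Ccl6 and Ccl9 was not tested.

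Interferon-induced CXC chemokines, which recruit T cells through Cxcr3, were called in few comparisons. Cxcl9 measured 3.06 and 2.13 FPKM in lung, 4.36 and 3.46 in small intestine, 0.294 and 0.632 in kidney and 2.57 and 6.39 in liver, and it was called lower in kidney (log2 difference of -1.62, SE 0.28, limma adjusted p = 0.00198). Under median-of-ratios scaling it was also called higher in liver (1.63, SE 0.28, limma adjusted p = 0.00174) and above lung there (-1.74, lung minus liver, SE 0.34, limma adjusted p = 0.00311). The call in liver was also made with quantile normalization, a pseudocount of 0.1, limma-voom, and without liver replicate 1. The deposited liver values overlapped those of lung and of small intestine, and the 2 liver libraries differed from each other more than liver differed from small intestine. Cxcl10 lay between 0.435 and 1.94 FPKM in all libraries and was called in none of the 4 comparisons with the mean of the other tissues. Cxcl11 did not pass the filter, with at most 1.33 FPKM, and 41.7% of its exon bases overlap Gm2673.

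Cx3cl1 (fractalkine) is a membrane-anchored chemokine of epithelium, endothelium and neurons that binds Cx3cr1. It measured 7.3 and 10.9 FPKM in lung, 13.7 and 17.2 in small intestine, 9.07 and 5.42 in kidney and 0.139 and 0.0986 in liver. It was present in 3 tissues and near the floor in liver, with 5 and 4 reads. Small intestine was called higher (log2 difference 1.87, SE 0.22, limma adjusted p = 0.000276) and liver lower, with a difference of -3.29 (SE 0.22, limma adjusted p = 1.37e-05). Lung and kidney overlapped and were not told apart (log2 difference of -0.30, kidney minus lung, limma adjusted p = 0.344). In kidney the difference was 0.51 (SE 0.22, limma adjusted p = 0.0874). Under median-of-ratios scaling the kidney difference was 0.95 (SE 0.17, limma adjusted p = 0.00255), just short of the call rule. Kidney was called higher with a pseudocount of 0.1 and with limma-voom. Scaling also put small intestine above lung by the call rule (-1.40, lung minus small intestine, SE 0.21, limma adjusted p = 0.000929). Xcl1, a product of T cells and natural killer cells, was highest in small intestine at 1.43 and 2.03 FPKM and overlapped with lung, at 0.587 and 1.54.

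Most members lie in groups on the chromosomes, and in several groups neighbours differed in the tissue of their highest mean, which is given here from the deposited values, also for members below the filter. On chromosome 11, the group at 82035571 to 82305690 (GRCm38) holds 6 members, of which 5 were highest in lung and Ccl11 in small intestine, where it was not called apart from lung. The group at 83525778 to 83664683 holds Ccl5, highest in small intestine, Ccl9, highest in liver, and Ccl6, Ccl3 and Ccl4, whose means were highest in lung but not told apart from small intestine (limma adjusted p = 0.156, 0.221 and 0.419). After median-of-ratios scaling the means of these 3 were highest in small intestine. On chromosome 5, the group at 90759360 to 90905938 holds Cxcl5, Cxcl3 and Cxcl15, highest in lung, Cxcl1, highest in liver, and Cxcl2, which had 2 and 7 reads in lung as in small intestine. The group at 92321347 to 92365485 holds Cxcl9, Cxcl10 and Cxcl11, none of them with its highest mean in lung, although the values of Cxcl9 and Cxcl10 overlapped between tissues. On chromosome 8, Ccl22 and Ccl17, highest in lung, flank Cx3cl1, highest in small intestine. On chromosome 4, all 5 members at 41769467 to 42773993 were highest in lung, although Ccl27a was highest in liver after scaling, and these are the genes that share sequence, with Ccl19 and Ccl21a placed at their chromosome 4 genes.

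The receptors of these ligands were mostly highest in lung as well in the deposited values. Of 23 receptor genes listed, 19 had their highest mean in lung and 3 in small intestine, and Ccr1l1 was listed at 0 in every library. After median-of-ratios scaling 15 were highest in lung, 6 in small intestine and 1, Ackr3, in kidney. Of the 17 tested, 14 were called higher in lung (40.7% of all genes) and 0 lower, with 8.26% of all genes in that direction. In kidney 1 was called higher (Ackr3, 8.65% of all genes) and 7 lower (16.1%), in liver 0 higher (6.56%) and 7 lower (32.7%), and in small intestine 0 higher (13.7%) and 1 lower (Ackr2, 11.3%). Under median-of-ratios scaling 10 of the 17 were called higher in lung, with 14.6% of all genes, and 2 lower in liver, with 13.9%. Over 31 pairs of a ligand and its receptor, both had the same highest tissue in 22. The pairs include genes below the filter, such as Ccl1, Cxcl3, Ccr4 and Ccr8. All 19 pairs whose ligand was highest in lung had a receptor that was also highest in lung, and 28 of all 31 pairs had such a receptor. After scaling both had the same highest tissue in 20 pairs, including 14 of the 15 whose ligand was highest in lung, and 19 of the 31 pairs had a receptor highest in lung.

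Ccr9, the receptor of Ccl25, was highest in the same tissue as its ligand but low, with 0.359 and 0.447 FPKM in lung, 1.15 and 0.964 in small intestine, 0.00454 and 0.00563 in kidney and 0.0213 and 0.0378 in liver, and it did not pass the filter. Cxcr4, the receptor of Cxcl12, measured 30.1 and 55.7 FPKM in lung, 2.72 and 2.59 in small intestine, 1.03 and 0.703 in kidney and 0.362 and 0.161 in liver. Its lung difference was 4.36 (limma adjusted p = 2.61e-06), and in liver Cxcr4 was low where Cxcl12 was high. The scavenger receptor of Cxcl12, Ackr3, measured 14.9 and 14.7 FPKM in lung, 2.07 and 2.56 in small intestine, 12.5 and 13.3 in kidney and 0.196 and 0.145 in liver. It was high in kidney as well as lung and low in liver. Ccr7, the receptor of Ccl19 and Ccl21, measured 16.5 and 24.5 FPKM in lung, 0.756 and 0.625 in small intestine, 0.0236 and 0.263 in kidney and 0.221 and 0.441 in liver and was called higher in lung (3.95, limma adjusted p = 1.54e-06). Cxcr5, the receptor of Cxcl13, measured 4.46 and 5.89 FPKM in lung, 0.289 and 0.265 in small intestine, 0.014 and 0.0347 in kidney and 0.0327 and 0.0581 in liver. Cxcr6, the receptor of Cxcl16, measured 7.32 and 5.5 FPKM in lung, 2.88 and 2.2 in small intestine, 0.459 and 0.359 in kidney and 0.565 and 0.502 in liver. Cx3cr1, the receptor of Cx3cl1, measured 2.98 and 2.11 FPKM in lung, 1.38 and 1.08 in small intestine, 0.248 and 0.256 in kidney and 0 and 0.129 in liver, so that receptor and ligand were both lowest in liver. Ccr6, the receptor of Ccl20, measured 4.9 and 2.86 FPKM in lung, 0.0527 and 0.305 in small intestine, 0 and 0 in kidney and 0 and 0.0478 in liver. It shared with Ccl20 the order of lung above small intestine, and lung replicate 1 above lung replicate 2. Ccr1, the receptor of Ccl6 and Ccl9, measured 2.96 and 3.75 FPKM in lung, 2.15 and 2.4 in small intestine, 0.0823 and 0.184 in kidney and 0.116 and 0.137 in liver, so it was low in liver, where Ccl9 was highest. Cxcr2, the receptor of Cxcl5, measured 1.38 and 2.77 FPKM in lung and at most 0.0716 in the other libraries. Ccr4, the receptor of Ccl17, measured 0.894 and 0.416 FPKM in lung, 0.0345 and 0.0571 in small intestine, and 0 in kidney and liver, and Ccr8, the receptor of Ccl8, measured 0.261 and 0.342 in lung and 0 elsewhere. Both Ccr4 and Ccr8 were below the filter.

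**Figure D5:**
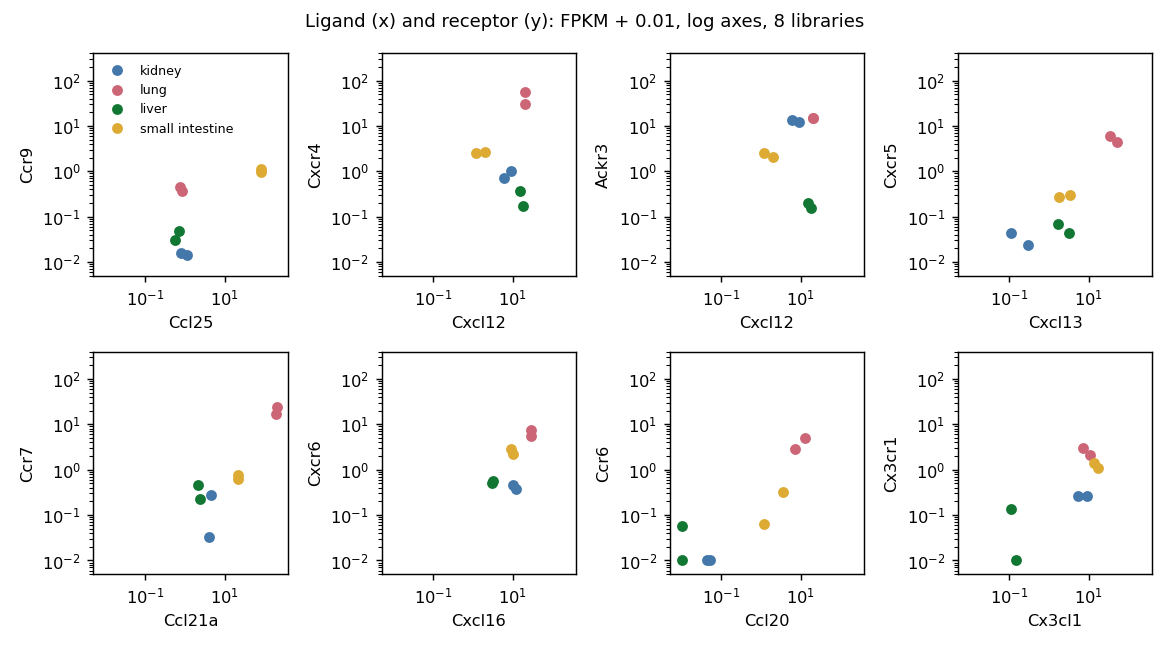
FPKM (plus 0.01, log axes) of a ligand (x axis) and of its receptor (y axis) in the 8 libraries, for 8 pairs, with points coloured by tissue. The lung points lie highest for the receptor in all panels but that of Ccl25 and Ccr9, where small intestine is highest for both, and Cxcl12 is high in liver where Cxcr4 and Ackr3 are low.

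Markers of other cell types were also high in lung in the deposited values. Those of dendritic cells summed to 31.3 and 33.3 FPKM in lung, 10.8 and 6.04 in small intestine, and at most 1.98 in kidney and liver. Those of endothelial cells summed to 247 and 292 in lung and at most 12.7 elsewhere. Those of fibroblasts summed to 142 and 129 in lung and at most 34 elsewhere. Those of plasma cells summed to 1006 and 668 in lung, 2959 and 628 in small intestine, and at most 16.7 in kidney and liver. After median-of-ratios scaling the dendritic cell sums were 17.3 and 17.6 in lung and at most 9.76 elsewhere. The scaled endothelial sums were 136 and 154 in lung and at most 17.3 elsewhere. The scaled fibroblast sums were 78.0 and 67.7 in lung, 51.3 and 54.1 in liver, and at most 22.6 elsewhere. The scaled plasma cell sums were 554 and 352 in lung and 2680 and 600 in small intestine. All 4 lists had every member called higher in lung (40.7% of all genes), as did that of plasma cells in small intestine (13.7%). Under median-of-ratios scaling (14.6% and 13%) this held in lung for the 3 markers of endothelial cells and the 3 of fibroblasts, but for 2 of the 4 of dendritic cells and 2 of the 3 of plasma cells, and for all 3 of plasma cells in small intestine. In liver, 1 of the 3 fibroblast markers was then called higher, with 12.3% of all genes. None of the genes of these 4 lists was at 0 in both lung libraries. The part of these cells in the levels of Cxcl13, Ccl19, Ccl21a and their receptors was not tested.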

How the data were processed

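Polyadenylated RNA was captured on beads from total RNA of the ground tissues, and cDNA libraries were made by tagmentation. By the methods of the paper, the authors selected reads by sample index with bbduk, mapped them with STAR 2.5.3a under default settings to the Ensembl mouse genome (GRCm38), and deposited FPKM values, for which they applied the fpkm function that DESeq2 provides. The counting program, its use of strand and its treatment of reads with several matches are not given in the sources used here. All 8 columns were matched to a sample by name. Coordinates and exon lengths came from GENCODE M21, where 99.3% of the symbols matched a single gene.

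Reads were recovered from FPKM, exon length and depth. Of the values below 50 reads, 94.6% to 96.1% per library were whole within 0.02 reads, and all 40 members were whole within 0.06 reads. Tests used limma 3.58.1 (lmFit, contrasts.fit, eBayes with a trend) in R 4.3.3 on log2(FPKM + 1), all 8 libraries in 1 fit. Tables and figures used Python 3.11.15, pandas 2.3.3 and matplotlib 3.10.9. The limma step was also tested on simulated data.

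Members with a mean of at least 10 FPKM in a tissue, or among the 3 largest called differences of a tissue, are described with all values, along with receptors paired with them. Other receptors are given by counts. Other members named were chosen after their values were seen. The members, roles, receptor pairs and marker lists were chosen with earlier results of these data known. Motifs were searched in RefSeq promoter windows of GRCm38.p6. Replicate numbers could not be tied to single mice, and the correlation of the replicate differences between tissues lay between -0.217 and 0.053, so no pairing was used. Alternatives changed the pseudocount, filter, scaling, model and libraries. The results of 1 further receptor and of 1 further list of markers are not reported here.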

Additional observations from a re-analysis of the deposited data

How the results depend on the processing

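Counts of members called per tissue and direction, and of members with a single highest tissue, were recomputed under each alternative, and those not named here stayed within 1.5 times. With a pseudocount of 0.1 the counts called higher became 1 in kidney (Cx3cl1), 5 in liver and 12 in small intestine. Limma-voom on the recovered reads gave 1 in kidney and 12 in small intestine. Median-of-ratios scaling and quantile normalization each gave 5 higher in liver, and quantile normalization 3 lower in lung (Ccl24, Ccl25 and Ccl28). The cause was not tested. The described members below were chosen by high values or large called differences in the same data, which favours calls that hold. Outside them, median-of-ratios scaling took away the higher calls of Ccl3, Ccl4 and Ccl27a in lung. It added those of Ccl27 and Cxcl9 in liver and of Ccl4 and Xcl1 in small intestine. Of 442 recomputed values of 26 differences of described members, 439 kept their direction and side of the call rule, 0 were reversed and 3 lost the call, namely Cxcl12 in lung under median-of-ratios scaling (0.44) and quantile normalization (0.85), and Cxcl16 in lung under median-of-ratios scaling (0.79). Leaving out each library in turn gave 21 to 23 members higher in lung, 18 to 21 lower in kidney, 19 to 22 lower in liver, 3 to 4 higher in liver and 7 to 9 higher in small intestine.

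With the replicate number as a replicate block the counts were the same, 22 higher and 1 lower in lung, 7 and 6 in small intestine, 3 and 20 in liver, 0 and 19 in kidney and 18 with a single highest tissue. Whether libraries with the same replicate number came from the same mouse could not be decided. The correlations of the replicate differences between tissues were -0.217 to 0.053, and low correlations do not exclude a shared mouse. Depth limits the 8 members below the filter, whose absence from a tissue could not be shown, and 2 mice per tissue limit the spread that was sampled.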

Other observations

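Chemokine ligands with other names showed further patterns. Pf4 and Ppbp, stored in platelets, were called higher in lung, with Pf4 at 19.7 and 25.1 FPKM and Ppbp at 10.8 and 23.7 FPKM, against at most 2.96 and 0.358 FPKM in the other libraries. Platelet markers summed to 5.92 and 9.85 FPKM in lung and 8.84 and 16.9 in small intestine, and their part in these values was not tested. Mif, a cytokine that also binds chemokine receptors, was called higher in kidney than the mean of the other tissues (limma adjusted p = 0.000357). It measured 129 and 145 FPKM in kidney and 87.1 and 90.2 FPKM in liver. These 2 tissues were not called apart in the deposited values (log2 difference 0.62, kidney minus liver, SE 0.17, limma adjusted p = 0.0265). Under median-of-ratios scaling Mif was called higher in liver as well (limma adjusted p = 0.00134), with scaled values of 125 and 201 in kidney and 158 and 144 in liver, and the 2 tissues were not told apart (log2 difference 0.07, kidney minus liver, SE 0.26, limma adjusted p = 0.88).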
